A study of Mus musculus with 2 samples.

Results

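The 34 genes described here encode the NF-kB signaling chain and the regulators that feed back on it. They comprised 3 receptors, 10 adaptors and ubiquitin ligases, 5 genes of the kinase level, 5 NF-kB subunits, 3 cytoplasmic inhibitors, 2 nuclear proteins of the inhibitor family, 4 negative regulators and 2 genes of the induced output. The genes were chosen by name for their place in the pathway, with earlier results of these data known, and each of the 34 matched 1 of the 31053 genes of the count tables by symbol.

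NF-kB is a family of transcription factors that rest in the cytoplasm, bound to IkB inhibitors. When cytokines such as TNF or IL-1 bind their receptors, adaptor proteins recruit the IkB kinase complex, the inhibitor is degraded, and dimers of RELA, REL and p50 (from Nfkb1) enter the nucleus. A slower arm works through the kinase NIK (Map3k14), which drives the processing of Nfkb2 and frees dimers that hold RELB. Many genes that NF-kB switches on encode its own brakes, among them the inhibitors and the deubiquitinase A20 (Tnfaip3), so a response is usually short. In endothelial cells (ECs) the pathway is best known for switching on the adhesion molecules that hold leukocytes at the vessel wall.

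Lung ECs were isolated from wild-type C57BL/6 mice, males of 8 to 10 weeks, 6 h after injection through the tail vein. Control mice received PBS (the control library) and the others 200,000 B16-F10 cells, a mouse melanoma line that seeds the lungs (the metastatic library). The cells were sorted for PECAM1, an EC surface protein, without a gate against leukocytes. Each group was 1 library of 2 pooled mice, so the differences below have no replicate check, and no p-value is given. Treatment, mice and library preparation cannot be told apart.

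The libraries held 67929614 and 64733724 unique molecular identifiers (UMIs), and 7134 control and 6466 metastatic barcodes had 1000 to 5000 detected genes and under 20% mitochondrial UMIs. General capillary cells (gCap-like, 5020 control and 4519 metastatic), aerocyte capillary cells (aCap-like, 1364 and 1086), vein-like cells (247 and 304) and artery-like cells (63 and 59) were named from at least 2 detected markers of each class. Levels are given as CPM, the UMIs of a gene scaled to 1000000 UMIs of the class. Markers kept apart from this rule were highest in the class they name for aCap-like and vein-like cells and for artery-like cells. The gCap markers kept apart were not, with 1614 and 1690 CPM in gCap-like and 1756 and 1704 CPM in artery-like cells. The 6 pan-endothelial markers (Pecam1, Cdh5 and others) were present in each class, summing to 9598 and 9641 CPM in gCap-like cells. RNA of other cell types was present in gCap-like cells in both libraries. Summed over their markers, leukocyte RNA was at 46.1 CPM in control and 59.7 CPM in metastatic cells, myeloid RNA at 350 and 232 CPM, platelet RNA at 175 and 271 CPM, erythroid RNA at 1956 and 822 CPM, and epithelial RNA at 1683 and 990 CPM. Melanoma markers were near 0 (1.81 and 2.31 CPM).

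The main comparison asked which parts of the NF-kB chain differed in gCap-like ECs between lungs that had received melanoma cells and control lungs. Ratios are log2 of the metastatic over the control library, with 95% intervals that reflect counting error and nothing else. A gene was called higher or lower at a log2 ratio of 0.5 or more in either direction, given at least 100 UMIs over both libraries, which 33 of the 34 genes had in gCap-like cells (Ikbke had 8 and 5 UMIs). By this rule 10 of the 33 genes were higher and 0 were lower in the metastatic library, where 4.88% of 11220 genes were higher and 2.59% were lower. The median log2 ratio was 0.25 over the 33 genes and 0.02 over the 11220 genes. The genes past this mark were 2 subunits of the RELB arm with their kinase Map3k14, the inhibitor Nfkbie, the nuclear protein Bcl3, the brakes Tnfaip3 and Tnip1, the adaptor Traf1 and both output genes.

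**Figure D1:**
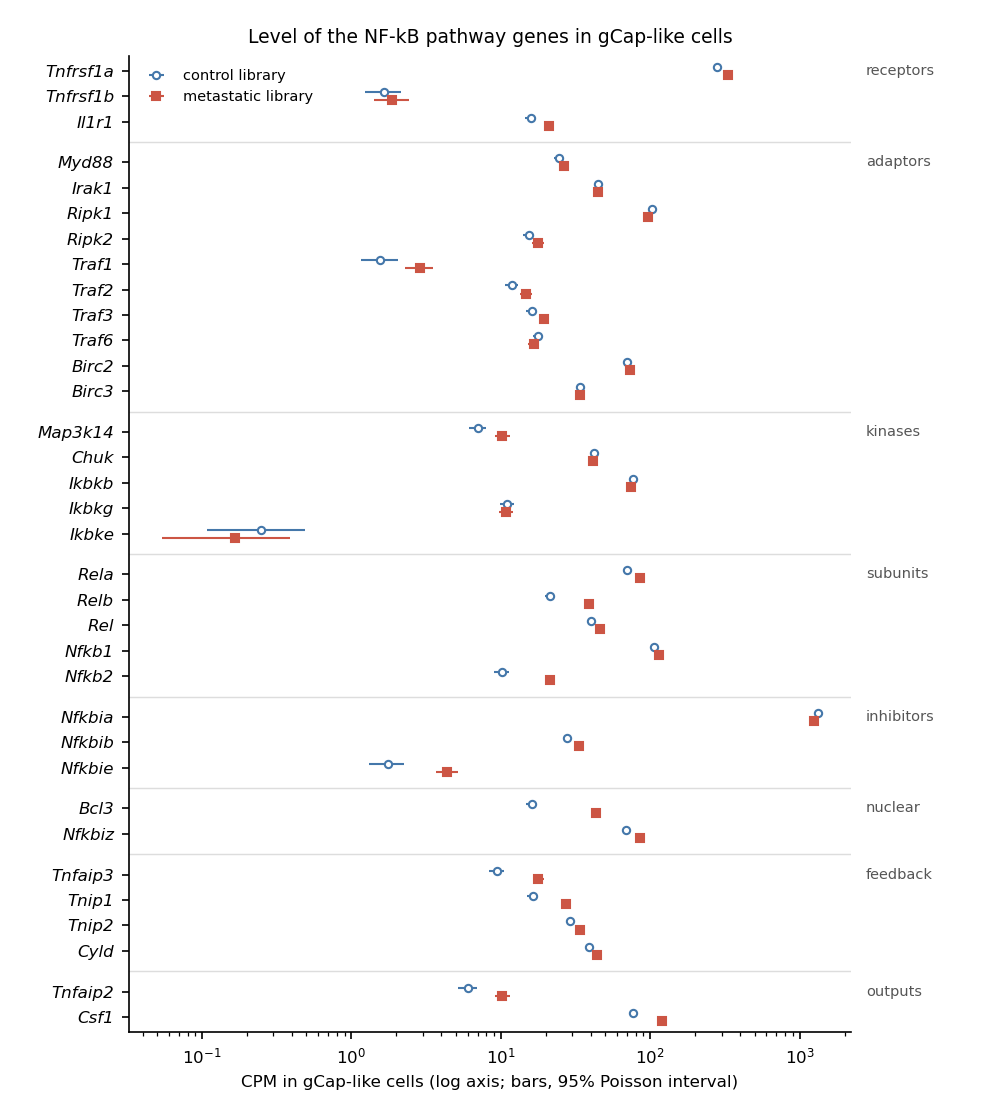
Level of each of the 34 genes in gCap-like cells of the control library (open circles) and the metastatic library (filled squares), in CPM on a log axis, grouped by role, with 95% Poisson intervals. The symbols lie close together for most receptors, adaptors and kinases and far apart for Bcl3 (16.1 and 43.5 CPM), Nfkbie (1.74 and 4.39 CPM) and Nfkb2 (10.1 and 21.4 CPM).

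Most receptors and adaptors differed by less than the mark of 0.5. Tnfrsf1a, the TNF receptor found on most cells, was at 278 CPM (272 to 284) in control and 331 CPM (324 to 337) in metastatic cells, a log2 ratio of 0.25 (0.21 to 0.29). Il1r1, the IL-1 receptor, was at 15.9 and 20.9 CPM, with a ratio of 0.40 (0.23 to 0.57). Tnfrsf1b, the second TNF receptor, rested on 53 and 57 UMIs, and its ratio of 0.19 had an interval from -0.38 to 0.76.

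Of the 10 adaptors and ligases, 1 was higher and 0 were lower. Traf1, an adaptor that binds TNF receptor complexes and is itself known as an NF-kB target, was at 1.56 CPM (1.16 to 2.05) in control and 2.87 CPM (2.30 to 3.54) in metastatic cells, from 50 and 87 UMIs (log2 ratio 0.88, 0.36 to 1.41). Without the barcodes that also held UMIs of 2 or more markers of another cell type, 7 and 13 UMIs were left and the ratio was 0.14 (-1.29 to 1.71). This step kept 1405 of 5020 gCap-like cells in control and 2224 of 4519 in the other library, and so unequal shares of the libraries, since 67.0% of the control and 41.5% of the metastatic barcodes held 2 or more erythroid markers. Leukocyte barcodes of the same libraries, 74 and 90 in number, held Traf1 at 83.3 and 99.8 CPM, and leukocyte RNA in gCap-like cells was 46.1 and 59.7 CPM as given above.

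Myd88 and Irak1, which carry the signal of IL-1 and Toll-like receptors, had ratios of 0.13 and -0.00 with intervals that included 0. So did Traf6 (-0.10), the ligase of the same branch. Ripk1, the scaffold kinase of the TNF receptor complex, was slightly lower, at 103 and 96.2 CPM (-0.10, -0.17 to -0.03). Birc2 and Birc3, the ligases that act on RIPK1 and keep NIK low, were at 69.8 and 72.7 CPM and at 33.8 and 33.7 CPM. Birc3 is itself a known NF-kB target, and its ratio was -0.00 (-0.13 to 0.12). Traf2 (0.31), Traf3 (0.27) and Ripk2 (0.21) were a little higher, with intervals above 0 and values under the mark of 0.5. TRAF2 and TRAF3 hold NIK for degradation, and RIPK2 serves the NOD receptors. Traf3 was at 0.09 and Ripk2 at 0.10 without the barcodes with RNA of another cell type. Other steps took them past the mark. With free RNA, taken from near-empty barcodes, subtracted, Traf2 was at 0.97 and Traf3 at 0.90. Ripk2 was at 0.51 when only near-empty barcodes not shared between the libraries were used for this.

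At the kinase level, Map3k14, which encodes NIK, was at 7.01 CPM (6.12 to 7.99) in control and 10.2 CPM (9.13 to 11.4) in metastatic cells (log2 ratio 0.55, 0.29 to 0.80). It was under the mark of 0.5 when 3 or more class markers were asked for and, at 0.38, when free RNA, taken from near-empty barcodes not shared between the libraries, was subtracted. The genes of the IkB kinase complex had ratios close to 0. Chuk (IKKalpha) was at 42.0 and 41.4 CPM and Ikbkb (IKKbeta) at 77.1 and 74.0 CPM, and Ikbkg (NEMO, the regulatory subunit) had 353 and 328 UMIs. Their ratios were -0.02, -0.06 and -0.02, each with an interval that included 0.

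Each of the 5 NF-kB subunits had an interval above 0, but the sizes differed between the arms. Nfkb2, which encodes p100 and its product p52, was at 10.1 CPM (9.05 to 11.3) in control and 21.4 CPM (19.8 to 23.1) in metastatic cells, a log2 ratio of 1.08 (0.88 to 1.28). Relb, its partner, was at 21.2 CPM (19.6 to 22.8) and 38.7 CPM (36.5 to 40.9), a ratio of 0.87 (0.73 to 1.01). The subunits of the fast arm differed less. Rela was at 69.4 and 85.7 CPM (0.31, 0.22 to 0.39), Rel at 40.3 and 46.4 CPM (0.20, 0.09 to 0.31), and Nfkb1 at 106 and 115 CPM (0.11, 0.04 to 0.18). The intervals of Nfkb2 and Relb did not reach those of Rela, Rel and Nfkb1. Relb and Nfkb2 are also known as NF-kB targets.

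The cytoplasmic inhibitors went different ways. Nfkbia encodes IkBalpha, the inhibitor that NF-kB resynthesizes first, and it is also known to be raised by glucocorticoids. It was at 1326 CPM (1313 to 1338) in control and 1255 CPM (1242 to 1268) in metastatic cells, a log2 ratio of -0.08 (-0.10 to -0.06). It was the largest count among the 34 genes, with 42560 and 38014 UMIs, and below 0 in each of 13 alternatives of the processing. Nfkbie (IkBepsilon) was at 1.74 CPM (1.32 to 2.27) and 4.39 CPM (3.68 to 5.20), a ratio of 1.33 (0.87 to 1.81) from 56 and 133 UMIs. Nfkbib (IkBbeta) was at 27.8 and 33.5 CPM (0.27, 0.14 to 0.40).

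Bcl3 had the largest ratio of the 33 genes. BCL3 is a member of the IkB family that sits in the nucleus on p50 or p52 dimers and can turn them into activators, and it is also known as a target of STAT3. It was at 16.1 CPM (14.7 to 17.5) in control and 43.5 CPM (41.2 to 45.9) in metastatic cells, a log2 ratio of 1.44 (1.29 to 1.59), and its interval overlapped that of Nfkbie. Nfkbiz, the other nuclear member (IkBzeta), was at 69.2 and 85.4 CPM (0.30, 0.22 to 0.39).

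Of the 4 negative regulators, the pair that works together at ubiquitin chains was higher. Tnfaip3 encodes A20, and it was at 9.38 CPM (8.35 to 10.5) in control and 17.9 CPM (16.4 to 19.4) in metastatic cells (log2 ratio 0.93, 0.72 to 1.14). Tnip1, a ubiquitin-binding partner of A20, was at 16.4 CPM (15.01 to 17.8) and 27.3 CPM (25.5 to 29.3), a ratio of 0.74 (0.58 to 0.90). Tnip2, its relative, had a ratio of 0.22 (0.09 to 0.34), and Cyld, another deubiquitinase, one of 0.18 (0.07 to 0.30). Tnfaip3 was abundant in the leukocyte barcodes, at 148 and 179 CPM, but without the gCap-like barcodes with RNA of another cell type its ratio was larger, 1.37 (0.95 to 1.81), and that of Tnip1 was 0.73 (0.45 to 1.02).

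Both output genes were higher. Csf1, the growth factor of macrophages, was at 76.5 CPM (73.5 to 79.6) in control and 119.6 CPM (116 to 124) in metastatic cells, a log2 ratio of 0.65 (0.57 to 0.72), and at 0.64 without the barcodes with RNA of another cell type. Tnfaip2, a TNF-induced gene of ECs and myeloid cells, was at 6.01 CPM (5.19 to 6.92) and 10.2 CPM (9.13 to 11.4), a ratio of 0.77 (0.50 to 1.03). Leukocyte barcodes held Tnfaip2 at 441 and 432 CPM. Without the gCap-like barcodes with RNA of another cell type, the levels were 1.75 and 6.89 CPM and the ratio 1.97 (1.18 to 2.86), from 15 and 99 UMIs.

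In terms of counting error alone, 22 of the 33 genes had an interval above 0 and 2 below it (Ripk1 and Nfkbia), where 24.7% of the 11220 genes had an interval above and 16.3% below 0. The summed level of the 34 genes was 2635 CPM in control and 2817 CPM in metastatic gCap-like cells.

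The promoters of the genes past the mark were examined next, since these genes include known targets of the pathway itself. RefSeq windows of 300 bases (250 before and 50 after a start site, GRCm38.p6) were found for 29 of the 34 genes, and the NF-kB consensus was counted in them on both strands. At least 1 window held it in 13 of the 29 genes (44.8%), and in 2581 of 27025 genes of the whole table (9.55%). Counted by window, the shares were 16 of 39 (41.0%) and 2779 of 32851 (8.46%). The genes were chosen by name and include known targets, so this comparison describes the choice and is no test of these data. Ripk2, Ikbkb, Relb, Nfkb1 and Nfkbiz were not matched. Relb lies at chr7:19606217-19629438 and Bcl3 at chr7:19808462-19822770, both on the minus strand (GRCm38, GENCODE M21). Among the 10 genes that were higher in gCap-like cells, the consensus was in a window of Nfkb2, Nfkbie, Bcl3, Tnfaip3, Tnip1, Tnfaip2 and Csf1 and in none of Traf1 and Map3k14. It was also in the windows of Irak1, Traf3, Rel, Nfkbia, Cyld and Il1r1, which were not past the mark. A match describes the sequence and not the binding of a factor. The windows shown are of 6 of the higher genes with a match and of Nfkbia, which was not higher. They run in the direction of transcription with the matches in capitals, to let the sites be compared. Overlapping matches run together.
Nfkb2 (chr19:46304487-46304786, plus strand): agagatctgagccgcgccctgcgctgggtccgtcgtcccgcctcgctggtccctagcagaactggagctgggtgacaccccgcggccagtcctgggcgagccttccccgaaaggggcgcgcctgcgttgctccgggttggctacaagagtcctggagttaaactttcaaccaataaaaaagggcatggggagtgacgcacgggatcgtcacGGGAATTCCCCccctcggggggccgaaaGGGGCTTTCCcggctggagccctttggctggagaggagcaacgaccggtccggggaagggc
Bcl3 (chr7:19822706-19823005, minus strand): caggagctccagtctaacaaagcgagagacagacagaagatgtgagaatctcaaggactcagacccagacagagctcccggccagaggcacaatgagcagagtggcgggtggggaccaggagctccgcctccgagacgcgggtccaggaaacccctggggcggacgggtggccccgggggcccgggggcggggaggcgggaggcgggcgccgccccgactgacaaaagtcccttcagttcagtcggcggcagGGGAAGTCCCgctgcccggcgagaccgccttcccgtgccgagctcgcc
Nfkbie (chr17:45555450-45555749, plus strand): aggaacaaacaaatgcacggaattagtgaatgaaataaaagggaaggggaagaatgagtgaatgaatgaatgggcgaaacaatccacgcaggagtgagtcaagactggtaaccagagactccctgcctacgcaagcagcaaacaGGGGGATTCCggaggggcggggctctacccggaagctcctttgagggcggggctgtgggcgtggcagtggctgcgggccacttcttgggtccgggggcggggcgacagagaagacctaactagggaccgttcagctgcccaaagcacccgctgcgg
Tnfaip3 (chr10:19015361-19015660, minus strand): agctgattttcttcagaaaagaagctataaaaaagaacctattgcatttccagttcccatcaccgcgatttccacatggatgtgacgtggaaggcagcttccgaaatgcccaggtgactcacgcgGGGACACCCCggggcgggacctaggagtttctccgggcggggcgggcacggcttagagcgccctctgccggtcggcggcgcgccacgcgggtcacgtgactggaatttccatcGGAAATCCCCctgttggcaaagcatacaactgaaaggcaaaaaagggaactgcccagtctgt
Tnip1 (chr11:54962891-54963190, minus strand): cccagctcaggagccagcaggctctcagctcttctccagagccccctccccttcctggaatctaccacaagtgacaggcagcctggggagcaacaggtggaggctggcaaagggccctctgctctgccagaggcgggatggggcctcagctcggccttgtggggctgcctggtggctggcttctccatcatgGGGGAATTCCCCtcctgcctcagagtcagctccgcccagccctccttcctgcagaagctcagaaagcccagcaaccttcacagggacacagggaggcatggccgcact
Csf1 (chr3:107760420-107760719, minus strand): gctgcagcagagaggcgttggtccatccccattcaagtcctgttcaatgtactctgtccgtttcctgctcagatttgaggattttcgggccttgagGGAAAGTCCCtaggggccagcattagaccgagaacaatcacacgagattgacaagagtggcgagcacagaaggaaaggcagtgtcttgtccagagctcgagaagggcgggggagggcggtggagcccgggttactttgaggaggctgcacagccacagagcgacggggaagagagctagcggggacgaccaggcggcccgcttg
Nfkbia (chr12:55492598-55492897, minus strand): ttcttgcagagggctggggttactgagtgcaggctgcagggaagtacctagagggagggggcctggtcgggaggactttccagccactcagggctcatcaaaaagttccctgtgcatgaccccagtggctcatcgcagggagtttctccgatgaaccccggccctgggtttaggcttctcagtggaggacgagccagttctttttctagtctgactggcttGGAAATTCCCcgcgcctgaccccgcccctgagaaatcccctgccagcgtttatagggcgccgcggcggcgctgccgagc

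The match of Bcl3 (GGGAAGTCCC) read as the consensus on both strands and began at position 3 after the start site. Tnip1 and Nfkb2 shared the core GGGAATTCCC, which began 57 and 39 bases before their starts. Tnfaip3 held a pair of matches, 125 and 12 bases before its start, and Nfkbia held 1 at 29 bases before.

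The same genes were then compared in the other EC classes, which came from the same 2 libraries and are therefore not independent of the gCap-like values. In aCap-like cells 30 of the 34 genes had enough UMIs, and 6 were higher and 0 lower, where 3.82% of 9504 genes were higher and 1.89% lower. The median was 0.22, and 0.03 over all 9504 genes. In vein-like cells 22 genes had enough UMIs, and 5 were higher and 0 lower, where 5.00% of 6260 genes were higher and 3.43% lower, with medians of 0.11 and 0.01. In artery-like cells only 4 genes had enough UMIs, and 1 was higher (Ikbkb, 0.51, -0.09 to 1.12) and 0 lower, with a median of -0.21, where 7.22% of 1827 genes were higher and 6.40% lower. RNA of other cell types also differed in aCap-like cells, where epithelial RNA was at 630 and 90.9 CPM, leukocyte RNA at 11.5 and 37.0 CPM, platelet RNA at 76.5 and 157 CPM and erythroid RNA at 1292 and 846 CPM. In artery-like cells leukocyte RNA was at 8.11 and 158 CPM, myeloid RNA at 18.3 and 267 CPM and platelet RNA at 14.2 and 148 CPM. The part of this RNA in the ratios was not tested beyond the values given without such barcodes.

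**Figure D2:**
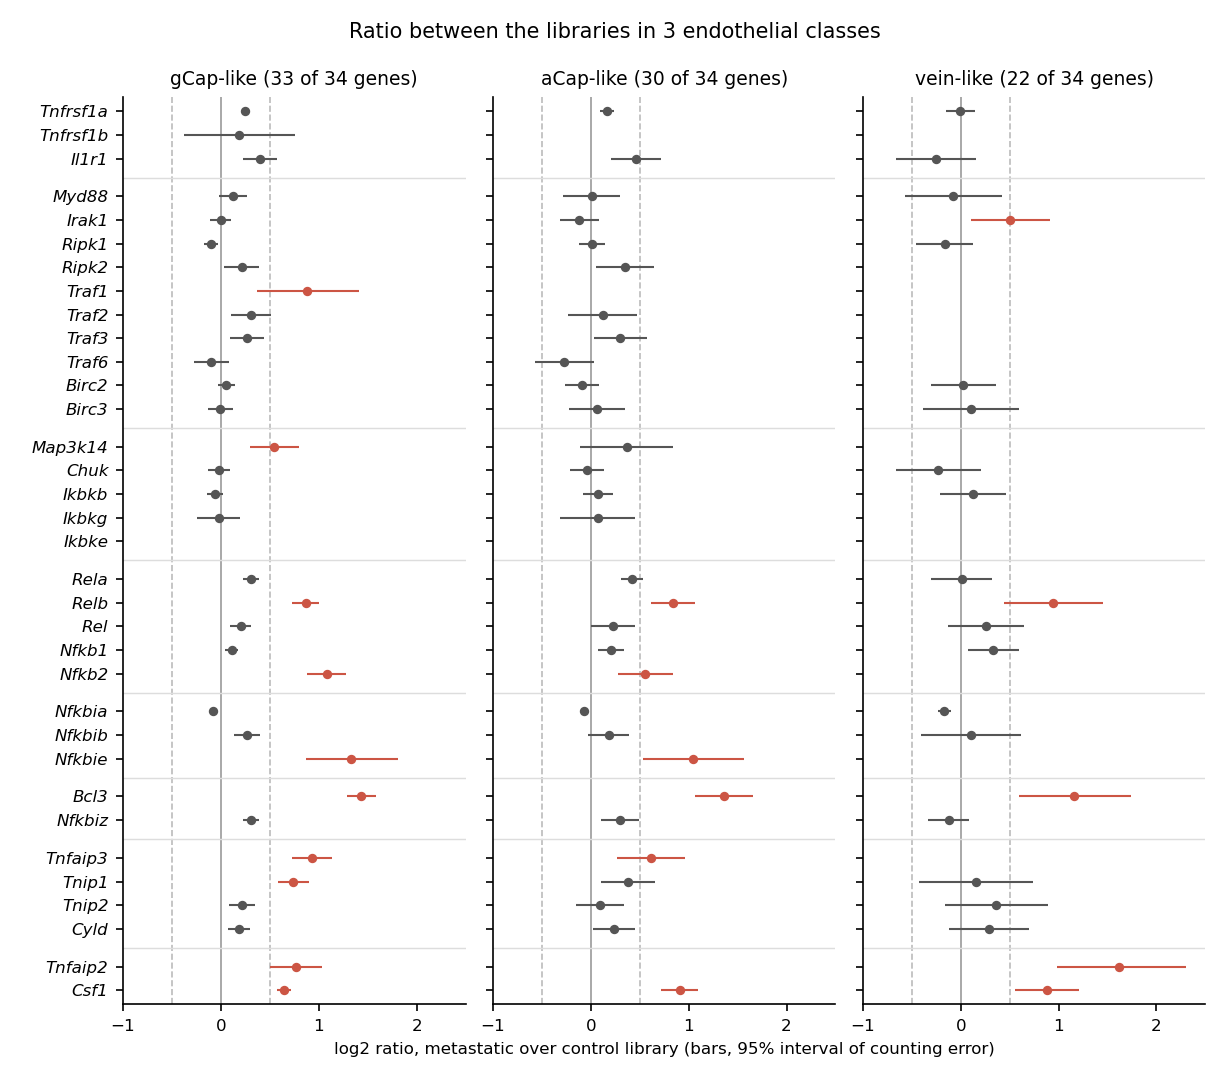
Log2 ratio of the metastatic over the control library (x axis) with its 95% interval of counting error for the genes with at least 100 UMIs in gCap-like (33 genes), aCap-like (30) and vein-like cells (22). Red marks genes past a ratio of 0.5 (dashed lines), which were 10, 6 and 5, with Relb, Bcl3 and Csf1 among them in each panel.

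Bcl3 was higher in the 3 larger classes. In aCap-like cells it was at 12.8 and 32.8 CPM (log2 ratio 1.36, 1.07 to 1.65), and in vein-like cells at 16.8 and 37.4 CPM (1.16, 0.60 to 1.74). In artery-like cells it rested on 5 and 8 UMIs. Relb was at 24.8 and 44.4 CPM in aCap-like cells (0.84) and at 22.2 and 42.6 CPM in vein-like cells (0.94, 0.45 to 1.45). In artery-like cells Relb had 1 UMI in the control and 21 UMIs in the metastatic library, which is 4.41 on the log2 scale (1.78 to 9.78), and 1.35 when 3 or more class markers were asked for. The 4 classes of the metastatic library thus held Relb at between 38.7 and 44.4 CPM.

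Csf1 was at 33.3 and 62.4 CPM in aCap-like cells (0.91, 0.72 to 1.10), at 51.7 and 94.9 CPM in vein-like cells (0.88, 0.55 to 1.21) and at 52.7 and 146 CPM in artery-like cells (1.47, 0.80 to 2.18, from 26 and 71 UMIs). Without the barcodes with RNA of another cell type, 13 and 18 UMIs were left in artery-like cells and the ratio was 0.05 (-1.06 to 1.20), while in aCap-like cells it was 1.06 (0.72 to 1.40). Its control level was highest in gCap-like cells (76.5 CPM), and the interval there (73.5 to 79.6) overlapped that of artery-like cells (34.4 to 77.3) and not those of vein-like (42.6 to 62.1) and aCap-like cells (30.0 to 36.8).

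The ratio of Nfkb2 was smaller in aCap-like than in gCap-like cells. In aCap-like cells it was at 17.0 CPM (14.7 to 19.6) in control and 25.0 CPM (21.9 to 28.5) in metastatic cells, a log2 ratio of 0.56 (0.27 to 0.84), and this interval did not overlap that of gCap-like cells (0.88 to 1.28). The control level was higher in aCap-like than in gCap-like cells, 17.0 and 10.1 CPM, while the metastatic levels were closer, 25.0 and 21.4 CPM. Without the barcodes with RNA of another cell type the aCap-like ratio was 0.26 (-0.18 to 0.71, from 69 and 116 UMIs), under the mark, and its interval overlapped, narrowly, that of gCap-like cells by the same step (1.06, 0.71 to 1.42). Whether this difference between classes exceeds that between mice could not be tested.

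Nfkbie had few UMIs in each class. It was at 4.59 and 9.48 CPM in aCap-like cells (1.05, 0.54 to 1.57), had 7 and 26 UMIs in vein-like cells (1.61, 0.37 to 3.06), and 0 and 9 UMIs in artery-like cells. No ratio is given for the last pair. Tnfaip3 was at 11.2 and 17.1 CPM in aCap-like cells (0.61, 0.27 to 0.96) and rested on 26 and 57 UMIs in vein-like cells (0.85, 0.16 to 1.58).

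Vein-like cells also held Tnfaip2 and Irak1 past the mark. Tnfaip2 was at 11.8 and 36.3 CPM (1.62, 0.98 to 2.30), but myeloid RNA in these cells went from 28.6 to 596 CPM, leukocyte RNA from 17.7 to 131 CPM, epithelial RNA from 123 to 3641 CPM and erythroid RNA from 441 to 1345 CPM, with Ptprc and the other leukocyte markers above 0 in both libraries and 1 of 4 myeloid markers at 0 in the control library. The part of these cells in the difference was not separated in the sums. Without the barcodes with RNA of another cell type, Tnfaip2 was left with 6 and 28 UMIs and a ratio of 1.40 (0.10 to 2.96), from 88 and 155 cells. With 3 or more class markers the ratio was 0.05. Irak1 was at 37.6 and 53.4 CPM (0.51), and at 0.45 (-0.15 to 1.08) without those barcodes. By the same step Bcl3 in vein-like cells was at 1.98 (0.90 to 3.26), Csf1 at 1.37 (0.80 to 1.98) and Relb at 0.89 (0.10 to 1.74).

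Nfkbia was on the lower side in each class. Its levels were 968 and 922 CPM in aCap-like cells (log2 ratio -0.07, -0.11 to -0.03), 1615 and 1438 CPM in vein-like cells (-0.17, -0.23 to -0.10) and 1207 and 989 CPM in artery-like cells (-0.29, -0.46 to -0.11). Without the barcodes with RNA of another cell type, the vein-like ratio was -0.03 (-0.13 to 0.07), with an interval that included 0. The aCap-like and artery-like ratios were then -0.07 (-0.14 to -0.01) and -0.30 (-0.56 to -0.03). The order of the classes was the same in both libraries, with vein-like cells highest, then gCap-like, artery-like and aCap-like cells. In the control library the intervals of gCap-like (1313 to 1338) and artery-like cells (1112 to 1308) did not overlap, though only narrowly. Nfkbiz was likewise highest in vein-like cells, at 160 and 147 CPM, against 69.2 and 85.4 CPM in gCap-like and 37.9 and 46.7 CPM in aCap-like cells, and the intervals of these 3 classes did not overlap in either library.

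Rela and Rel were ordered differently from each other. Rela was highest in aCap-like cells, at 106.5 CPM (101 to 113) in control and 142 CPM (135 to 150) in metastatic cells, against 69.4 and 85.7 CPM in gCap-like cells. Rel was lower in aCap-like than in gCap-like cells, at 29.4 CPM (26.3 to 32.7) against 40.3 CPM (38.2 to 42.6) in the control library. Il1r1 was highest in vein-like cells, at 45.8 CPM (37.3 to 55.6) in the control library, against 15.9 CPM (14.5 to 17.3) in gCap-like cells, with overlap only with artery-like cells (14.0 to 45.1). Birc3 was higher in gCap-like than in aCap-like cells, at 33.8 and 19.1 CPM in the control library. Tnfrsf1a showed little order in the control library, with levels between 271 and 291 CPM in the 4 classes and intervals that overlapped throughout. In the metastatic library it was highest in gCap-like cells, at 331 CPM (324 to 337). That interval did not overlap those of aCap-like (293 to 316), vein-like (270 to 311) and artery-like cells (218 to 311).

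To ask how these differences were spread over single cells, the gCap-like cells were thinned at random to 2000 UMIs each, which left 4947 control and 4461 metastatic cells of equal depth (median depths before thinning were 5951 and 6275 UMIs). No cell type of these libraries is known to lack these genes, so no share from such a type is given as a background. Free RNA was not subtracted from the shares, and by the profile used its estimates ran from 1.74% to 21.7% of the UMIs. Bcl3 was detected in 3.25% (2.78 to 3.79) of the control and 7.78% (7.01 to 8.60) of the metastatic cells, and without thinning in 8.76% and 19.2%. A random (Poisson) spread of the same mean would give 3.38% and 8.33%, but at so low a mean such shares tell little of how evenly a gene was used. Relb was detected in 4.06% and 6.99% and Nfkb2 in 1.84% and 3.65% of the cells.

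Nfkbia had enough UMIs per cell for its spread to be described. Its mean was 2.70 UMIs in control and 2.53 UMIs in metastatic thinned cells, but the variance over mean was 1.55 in the control and 2.05 in the metastatic cells. Cells with 0 Nfkbia UMIs were more frequent in the metastatic library, 16.9% against 11.5%, while cells with 3 to 5 UMIs were less frequent (31.3% against 38.7%). The share of cells with 6 to 9 UMIs differed little (9.01% against 8.05%), and no interval was computed for it. The most Nfkbia UMIs in a cell were 16 and 22. Without the barcodes with RNA of another cell type, variance over mean was 1.48 and 2.20 and the share at 0 was 10.4% and 15.7%, and without doublets these values were 1.56 and 2.07 and 11.4% and 17.0%.

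The other genes were then compared between cells with few and with many thinned Nfkbia UMIs. Cells were split by their thinned Nfkbia count into 0 or 1 (1545 control and 1745 metastatic cells), 2 to 5, and 6 or more UMIs (434 and 446 cells). In the metastatic library some genes were higher in the highest than in the lowest range with intervals that did not overlap, and 0 were lower. They were Tnfrsf1a, Birc2, Birc3, Bcl3, Nfkbiz, Tnfaip3, Tnip1 and Tnfaip2. The same split was not made over all genes. Whether such differences are more frequent in this pathway than elsewhere was therefore not tested. In metastatic cells Tnfaip3 was at 11.5 CPM (8.19 to 15.6) in the lowest and 41.5 CPM (29.2 to 57.2) in the highest of these ranges, and Tnip1 at 18.6 CPM (14.4 to 23.7) and 50.4 CPM (36.8 to 67.5). Nfkbiz was at 60.2 CPM (52.3 to 68.9) and 141 CPM (118 to 168), and Bcl3 at 37.2 CPM (31.1 to 44.2) and 63.9 CPM (48.4 to 82.8). The other negative regulators lay the other way with intervals that overlapped, Tnip2 at 33.5 and 25.8 CPM and Cyld at 55.6 and 44.8 CPM.

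In control cells the same split gave 6.15 and 16.1 CPM for Tnfaip3, 11.7 and 13.8 CPM for Tnip1, 51.1 and 78.3 CPM for Nfkbiz, and 16.2 and 23.0 CPM for Bcl3. Of the 33 genes, only Nfkbiz had intervals in the control library that did not overlap between the lowest and the highest range. Tnfaip3, Tnip1 and Bcl3 had fewer UMIs in these ranges of the control library (Tnfaip3 had 40 and 37 in the metastatic). The shorter list in control therefore does not show that its genes differed less between the ranges. Here too, the share over all genes was not counted. In cells with 0 or 1 Nfkbia UMIs, Bcl3 was at 37.2 CPM in the metastatic and 16.2 CPM in the control library, and Csf1 at 127 and 79.0 CPM. At a mean of 2.53 UMIs in the metastatic cells, many cells fall into this range by sampling alone. Without thinning, 96.0% of the metastatic gCap-like cells held Nfkbia. The split therefore cannot show whether the higher levels were restricted to cells high in Nfkbia. Csf1 changed little with the split in the metastatic cells, at 127 CPM (115 to 139) and 140 CPM (117 to 167). These are cells of 1 library each, and a difference between ranges describes that library.

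**Figure D3:**
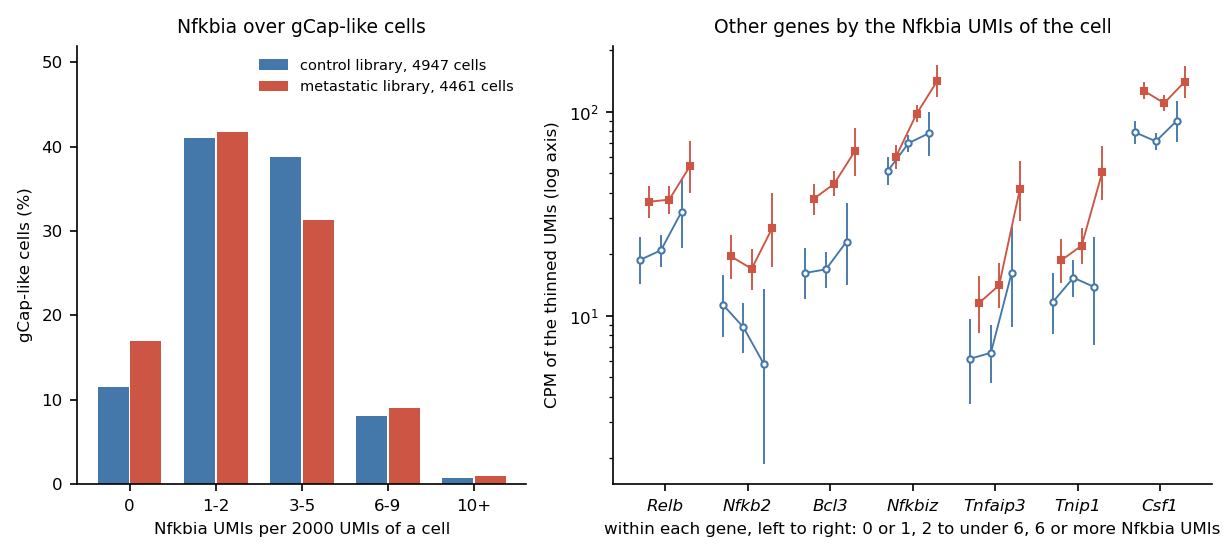
Left, share of gCap-like cells (%) by the number of Nfkbia UMIs per 2000 UMIs of a cell in the control (4947 cells) and metastatic library (4461 cells), with more cells at 0 in the metastatic library (16.9% against 11.5%). Right, CPM (log axis, 95% Poisson intervals) of 7 other genes in cells with 0 or 1, 2 to 5 and 6 or more Nfkbia UMIs, open circles for control and filled squares for metastatic cells, where Tnfaip3 goes from 11.5 to 41.5 CPM in metastatic cells.

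Csf1 was detected in 13.0% and 18.6% of the thinned cells, with a variance over mean of 1.19 and 1.41, and of 1.16 and 1.26 without the barcodes with RNA of another cell type. Tnfaip2 was detected in 0.526% and 1.41% of the cells, with a variance over mean of 2.60 and 1.74 and up to 7 UMIs in a thinned control cell.

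Genes outside the 34 were described to place them, from lists that were also chosen with earlier results of these data known. Their counts stand beside the 4.88% of 11220 genes that were higher and 2.59% that were lower in gCap-like cells. Of 21 known targets of NF-kB in ECs, 15 had enough UMIs in gCap-like cells, and 5 were higher and 1 lower, with a median log2 ratio of 0.29. Sele, the E-selectin that catches rolling leukocytes, had 12 UMIs in the control and 268 in the metastatic library (0.374 and 8.85 CPM, 4.56, 3.74 to 5.54). Vcam1 was at 9.63 and 17.5 CPM (0.86, 0.66 to 1.07) and Icam1 at 192 and 281 CPM (0.55, 0.50 to 0.60), both adhesion molecules for leukocytes. Without the barcodes with RNA of another cell type these 3 ratios were 4.12, 0.96 and 0.48.

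Cxcl10, a chemokine that interferons also raise, was at 12.0 and 31.2 CPM (1.38, 1.21 to 1.56). Without those barcodes it was at 31.1 and 34.2 CPM (0.14, -0.08 to 0.36). The step thus changed the control level of Cxcl10 more than its metastatic level. Ptgs2 (COX-2) rested on 47 and 65 UMIs (0.55, -0.01 to 1.12). Bcl2l1, which encodes the survival protein BCL-XL, was the lower one, at 249 and 134 CPM (-0.89, -0.94 to -0.83). Erythroid RNA was also lower in these cells, and Bcl2l1 had a ratio of -1.02 without the barcodes with RNA of another cell type. Cxcl2, Cx3cl1, Selp and Sod2 were among the 9 targets with enough UMIs that were not past the mark, with ratios of -0.00, 0.02, 0.26 and 0.09.

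Of 44 other genes of the pathway, 37 had enough UMIs, and 6 were higher and 0 lower, with a median of 0.07. Cd40, a receptor that feeds the NIK arm, was at 15.05 and 24.0 CPM (0.67, 0.50 to 0.84). Nfkbid, a further nuclear IkB protein, was at 3.46 and 5.32 CPM (0.62) and Tlr2, a Toll-like receptor, at 3.86 and 5.91 CPM (0.61). The other 3, Ltb (1.11), Ikzf1 (0.69) and Il1b (0.56), are genes of leukocytes. Without the barcodes with RNA of another cell type they were left with 5 and 10, 1 and 3, and 8 and 11 UMIs, while Cd40 had a ratio of 0.76 (0.47 to 1.05) and Nfkbid was at 1.17 (0.48 to 1.92).

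Glucocorticoids are known to dampen NF-kB, and 7 of 10 genes that respond to them were lower in the metastatic gCap-like cells, with a median of -0.64. Among them were Fkbp5, at 116 and 60.3 CPM (-0.94), and Tsc22d3, at 303 and 183 CPM (-0.73). Nfkbia, which both pathways are known to raise, stood at -0.08 as given above, and what the glucocorticoid genes have to do with it was not tested. Immediate early genes, which the isolation of cells can also raise, were high in both libraries, with Jun at 3881 and 3908 CPM and Fos at 1749 and 1687 CPM. Of 10 such genes 2 were higher (Atf3, 0.51, and Nr4a1, 0.57) and 0 lower, with a median of 0.01.

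**Figure D4:**
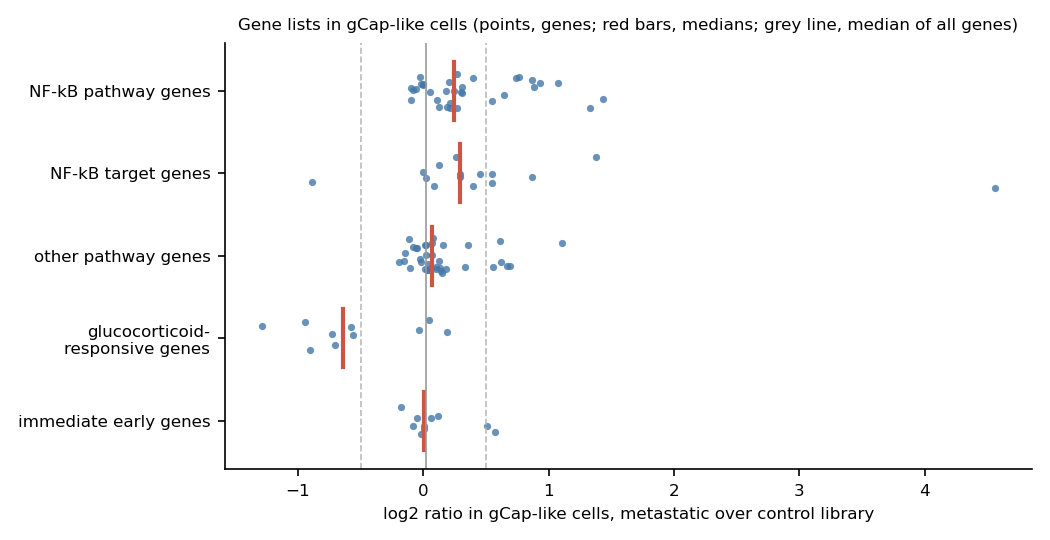
Log2 ratio of the metastatic over the control library in gCap-like cells (x axis) for the genes of 5 lists with at least 100 UMIs, 1 point a gene, shifted at random on the y axis within a list. Red bars are medians, at 0.25 for the 33 NF-kB pathway genes shown, 0.29 for targets, 0.07 for other pathway genes, -0.64 for glucocorticoid-responsive and 0.01 for immediate early genes, and the grey line is the median of all genes (0.02).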

How the data were processed

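Single cell suspensions of mouse lung were sorted for PECAM1 and sequenced with the 10x Genomics 3′ kit. The deposited values are raw UMI counts per gene and barcode, which the authors made with Cell Ranger on mm10, with no cell filter or normalization. The matrix header names version 3.1.0 of the software, and the annotation release was not given in the sources used here. The 34 genes, the other gene lists and the thresholds were chosen with earlier results of these data known, and the ranges of Nfkbia UMIs after its spread had been seen.

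Barcodes with 1000 to 5000 genes and under 20% mitochondrial UMIs were kept. A barcode was aCap-like, vein-like or artery-like with at least 2 of 3 markers (Ednrb, Fibin, Tbx2; Slc6a2, Car8, Bst1; Gja5, Bmx, Fbln5), and gCap-like with at least 2 of Gpihbp1, Aplnr, Kit and Lpl and none of these classes. Barcodes of more than 1 class (46 and 32) were left out, 394 and 466 had no class, and 16 barcodes were called in both libraries. Doublets were kept in the main values and left out as an alternative (407 and 334 barcodes, simulated doublets). UMIs were summed per class and library. CPM carry exact Poisson intervals, log2 ratios exact conditional binomial intervals and shares exact Clopper-Pearson intervals, at 95% and for counting error only. The named genes outside the 34 are those of 2 fixed lists past a log2 ratio of 0.5 in gCap-like cells, with examples of the rest. Ratios were checked on simulated data. Python 3.11.15, numpy 2.4.6, scipy 1.17.1, pandas 2.3.3, scikit-learn 1.9.0, matplotlib 3.10.9, R 4.3.3 and edgeR 4.0.16 (scaling factors only) were used.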

Additional observations from a re-analysis of the deposited data

Results flagged for a closer look

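Nfkbiz, the nuclear IkB protein, had ratios of opposite sign in the classes. In artery-like cells its log2 ratio was -0.84 (40 and 22 UMIs in 63 and 59 cells), against 0.30 in gCap-like and 0.30 in aCap-like cells, which put the artery-like ratio 1.15 below the gCap-like and 1.14 below the aCap-like ratio on the log2 scale. As signed differences, artery-like minus the other class, these were -1.15 and -1.14. The intervals did not overlap, but each class was 1 library per group, and the difference was not tested. These UMIs were under the minimum of 100 over both libraries used elsewhere, and with 3 or more class markers, which left 12 and 7 cells, the ratio turned to 0.47. This was the 1 of 13 alternatives with a ratio above 0. Lymphatic RNA (2.03 and 158 CPM) and leukocyte RNA (8.11 and 158 CPM) also differed between the artery-like cells of the libraries. Without the barcodes with RNA of another cell type, 26 and 14 UMIs were left and the ratio was -1.31 (-2.36 to -0.32). Beyond this value, the part of such RNA in the result was not tested.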

How the results depend on the processing

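Of the members' ratios under 13 alternatives, 1638 stayed within the interval of the main value, and 66 moved outside it. No ratio of a gene past the mark with at least 100 UMIs changed sign. The pooled count includes steps that moved none, such as the mitochondrial limit of 10%, and genes with wide intervals. In gCap-like cells 11 ratios moved and 17 stayed with free RNA subtracted. Without barcodes with RNA of another cell type, 8 moved and 26 stayed there. With a log2 ratio of 1 in place of 0.5 as the mark, 3 genes were higher in gCap-like, 2 in aCap-like and 2 in vein-like cells, and with 0.3 the count in aCap-like cells was 13. With no minimum of UMIs, 1 gene was lower in gCap-like and 1 in aCap-like cells, and 11 were higher in vein-like cells (9 with a minimum of 50). In vein-like cells 2 were higher without barcodes with RNA of another cell type, which left 88 and 155 cells, and 2 with 3 or more class markers. Without those barcodes they were Csf1 and Nfkb1 (0.61), the latter under the mark in the main values. Bcl3 (8 and 56 UMIs), Relb (18 and 59) and Tnfaip2 (6 and 28) then fell under the minimum of 100 UMIs. Their ratios were 1.98, 0.89 and 1.40. With free RNA subtracted, 12 were higher in aCap-like cells. The share over all genes was not counted under these alternatives, so the counts describe the chosen genes alone. The share of free RNA was estimated from cells without a UMI of 7 genes, a method chosen after seeing the data, and came to 21.7% and 17.8% with the profile of all barcodes of 11 to 50 UMIs but to 2.74% and 1.74% with the few not shared between the libraries. Subtraction moved Nfkb2 in gCap-like cells to 1.66 and Nfkbiz to 0.83. TMM and median scaling shifted ratios by at most 0.05. No paired analysis was possible because each group held 1 library, and none could be left out.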
